A study of Mus musculus with 10 samples.

Results

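The genes described here are 46 genes of DNA replication and of the step from G1 into S phase, measured in mouse melanoma cells with and without interferon gamma (IFN-γ). They were chosen by symbol from the deposited table: origin licensing factors, helicase activators, DNA polymerases, the sliding clamp and its loader, enzymes of nucleotide synthesis, factors that copy chromatin and regulators of S phase entry. All 46 were found among the 77175 entries of the table, and all 46 were among the 15526 entries with enough counts to be tested. Their counts ran from 274 to 10393 reads per gene and library.

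RNA was sequenced in bulk from a pair of cell lines: the pigmented mouse melanoma line B16-F10, called WT here, and its derivative B16-F10-OVA, called OVA here. By its genotype label the OVA line carries a lentiviral expression vector with a neomycin marker, in which the EF1A promoter drives ovalbumin, a model antigen. Whether that line is a clone or a pool is not said in the labels. Each line was sampled untreated, in 2 libraries, and after 24 h of IFN-γ at 50 ng/ml, in 3 libraries, so there were 10 libraries in 4 groups. No group had any other agent or allele by the labels, and there was no WT line with an empty vector among the samples analysed, so the vector and ovalbumin cannot be told apart between the lines. The series asked whether the lines differ in their response to IFN-γ.

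In each cell cycle, origins of replication are licensed in G1, when ORC, Cdc6 and Cdt1 load the ring of Mcm2 to Mcm7 onto DNA. At the start of S phase, kinases convert the loaded rings into active helicases by adding Cdc45 and GINS, after which polymerase alpha with primase starts each strand, and polymerases epsilon and delta extend the strands on the Pcna clamp. Many of these genes are transcribed in a wave before S phase by E2F transcription factors, which the Rb family holds back until cyclin D and cyclin E kinases act on it. IFN-γ is a cytokine that signals through JAK kinases, and it is known to slow the growth of many tumour lines in culture.

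Total counts ran from 17728722 to 19642533 per library, and no library stood apart in depth. The cell type in the labels was checked against its markers: all 7 melanocyte markers looked at (Pmel, Tyr, Tyrp1, Dct, Mlana, Mitf and Sox10) passed the count filter, with a summed level of 23100 to 24500 CPM (counts scaled to a common library total with TMM factors) in a library. Of 6 T cell markers none passed, with a summed level of at most 0.329 CPM, and Cd3e and Ptprc had no counts in any library. Macrophage markers summed to 2.16 to 5.05 CPM, with 2 of 5 passing the filter. Fibroblast markers summed to 4.18 to 7.68 CPM, with 3 of 6 passing. Epithelial markers summed to 0.548 to 1.58 CPM, with 1 of 6 passing and no counts for Epcam, Krt5, Krt8 and Krt14.

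The promoters of these genes are shown before the values, because E2F binding letters are what the replication genes are best known to share. RefSeq promoters of the GRCm38.p6 build, running from 250 bases before to 50 bases after a gene's start, were at hand for 38 of the 46 genes. They were searched on both strands for 4 forms of the E2F element, TTTCCCGC, TTTGGCGC, TTTCGCGC and TTTGCCGC. At least 1 of these was found in 16 of the 38 genes, or 42.1%, against 704 of all 27025 genes in the table of promoters, or 2.6%. A gene with several promoters was counted if any of them held a match. By promoter the share was 16 of 45, or 35.6%, against 2.26%. The 16 genes were Orc1, Cdc6, Cdt1, Mcm3, Mcm5, Mcm6, Mcm7, Gins3, Pola1, Pold1, Pole2, Rfc3, Lig1, Uhrf1, Dnmt1 and Clspn. A match of letters is a description and shows no binding. The 140 bases before the start are printed below in lower case for 5 of the 16, with the E2F letters (on either strand) in capitals. Cdc6 and Orc1 are shown as licensing factors that fell with IFN-γ, Mcm6 as the gene with 3 matches, Gins3 as a gene that was not called, and Rfc3 as the gene that rose.
Cdc6, chr11:98908011-98908150, plus strand: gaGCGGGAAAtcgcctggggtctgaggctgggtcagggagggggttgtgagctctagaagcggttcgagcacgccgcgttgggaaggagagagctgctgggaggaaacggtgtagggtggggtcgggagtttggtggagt
Orc1, chr4:108579314-108579453, plus strand: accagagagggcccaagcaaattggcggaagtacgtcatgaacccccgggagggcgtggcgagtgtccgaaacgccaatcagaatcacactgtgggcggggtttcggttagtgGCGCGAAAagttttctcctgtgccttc
Mcm6, chr1:128359706-128359845, minus strand: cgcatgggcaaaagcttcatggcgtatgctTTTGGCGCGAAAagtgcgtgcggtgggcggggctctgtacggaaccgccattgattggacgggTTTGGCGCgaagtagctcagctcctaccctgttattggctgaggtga
Gins3, chr8:95633419-95633558, plus strand: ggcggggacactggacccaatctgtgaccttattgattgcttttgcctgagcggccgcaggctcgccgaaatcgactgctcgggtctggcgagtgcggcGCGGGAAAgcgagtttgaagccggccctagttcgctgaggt
Rfc3, chr5:151651209-151651348, minus strand: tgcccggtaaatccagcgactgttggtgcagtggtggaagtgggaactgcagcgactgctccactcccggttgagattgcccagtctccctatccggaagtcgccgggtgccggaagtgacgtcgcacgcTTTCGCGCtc
The match began 138 bases before the start in Cdc6, 27 in Orc1, 41 in Gins3 and 10 in Rfc3, which had another match beginning at the start itself, outside the printed stretch. In Mcm6 the 3 matches began at 110, 106 and 47 bases before the start, and those at 110 and 106 overlap. Other elements were searched in the same windows. CCAAT, the letters bound by NF-Y, was found in 63.2% of the 38 genes and 41.1% of all genes. The core of the ISRE, GAAA followed after 2 bases by another GAAA and bound by interferon regulatory factors, was found in 0 of the 38 and in 3.99% of all genes, which says only that these letters are not in these windows.

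Most of the replication genes were lower after IFN-γ in both lines, by modest amounts. In WT cells 37 of the 46 genes fell and 2 rose, Rfc3 and Rfc5, at an adjusted p under 0.05 (edgeR's quasi-likelihood test with Benjamini-Hochberg adjustment over all 15526 genes, which is what called means below). Across all genes tested, 19.7% were called lower, 24.5% higher and 44.2% in either direction in that comparison. In OVA cells 35 fell and 1 rose, Rfc3, where 22.9% of all genes were called lower, 25.9% higher and 48.8% in either direction. The median difference over the 46 genes was -0.28 on the log2 scale in WT and -0.26 in OVA, or -17.4% and -16.3%, while the median over all genes was 0.011 in WT and 0.0018 in OVA. Single genes lay between -0.59 and 0.33 in WT and between -0.50 and 0.36 in OVA, so none of the 46 reached a change of 2-fold in either direction. The 46 genes together held 0.698% to 0.705% of all counts in untreated WT libraries and 0.540% to 0.549% in treated ones. In OVA they held 0.700% to 0.705% untreated and 0.565% to 0.570% treated, so in each line every treated library was below every untreated one. In bulk RNA, fewer cells in S phase and less of these RNAs per cell cannot be told apart.

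**Figure D1:**
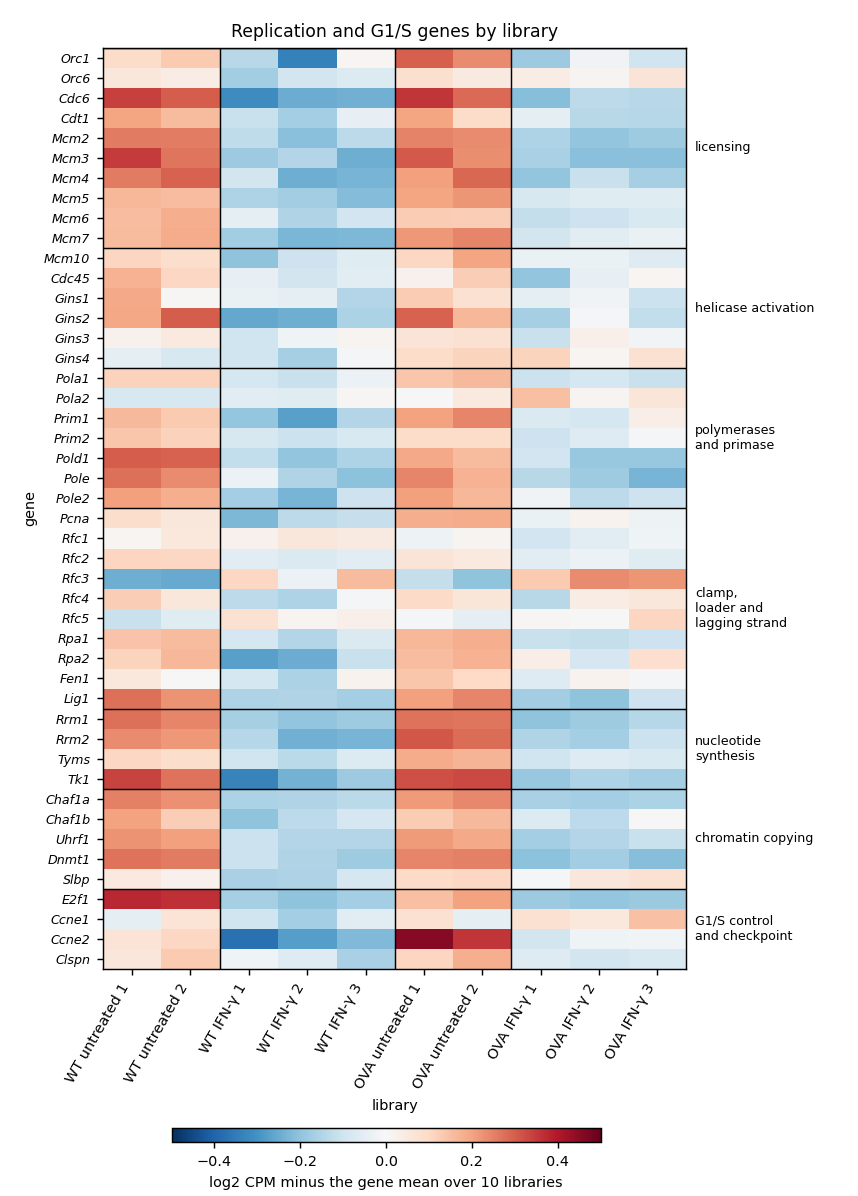
Level of the 46 genes (vertical axis, grouped by role) in each of the 10 libraries (horizontal axis), as log2 CPM minus the gene's own mean over the libraries, with red above and blue below that mean. Untreated libraries are mostly red and treated ones mostly blue, and Rfc3 shows the opposite pattern in both lines.

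Of the 46 genes, 34 fell in both lines and 1, Rfc3, rose in both. Orc6, Rfc4 and Slbp were called lower in WT alone, Fen1 was called lower in OVA alone, and Rfc5 was called higher in WT alone. Gins1, Gins3, Gins4, Pola2, Rfc1 and Ccne1 were called in neither line. A call in 1 line does not show a difference between the lines, which is tested further on. The libraries of the treated and untreated groups did not overlap, with the treated ones lower, for 40 genes in WT, against 29.0% of all genes, and for 39 in OVA, against 31.7%. With the treated ones higher they did not overlap for 3 genes in WT, against 33.0%, and 2 in OVA, against 34.0%.

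**Figure D2:**
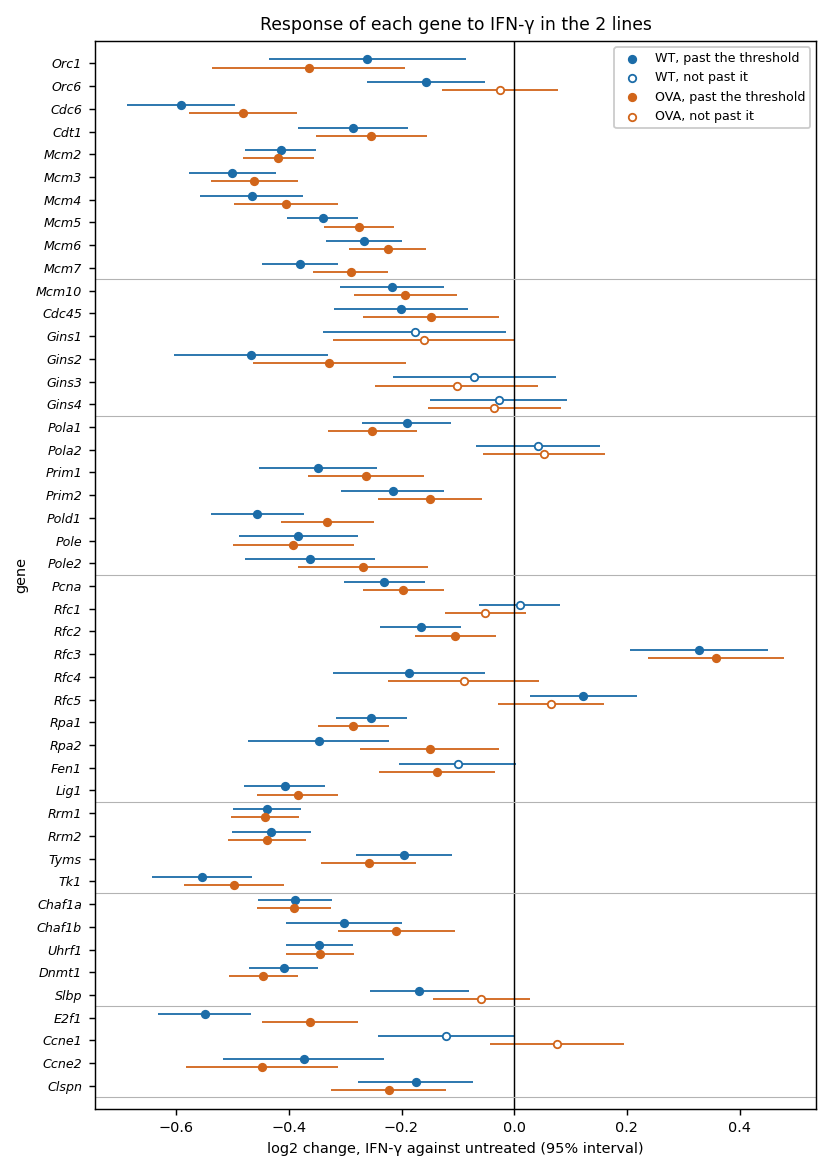
Difference between IFN-γ and untreated cells on the log2 scale (horizontal axis, with its 95% interval) for each of the 46 genes (vertical axis, by role), with WT in blue and OVA in orange and filled points where the gene was called. Most points lie between -0.2 and -0.6 in both lines, and Rfc3 is the one gene called above 0 in both.

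Every one of the 10 licensing genes fell in WT cells, and 9 of 10 fell in OVA cells, with medians of -0.36 and -0.33. Cdc6, the ATPase that joins ORC at origins to load the Mcm ring, had the largest fall of all 46 genes in WT. Its level was 74.5 and 72.5 CPM in the untreated WT libraries and 47.2, 49.5 and 49.8 in the treated ones. In OVA cells it was 75.2 and 71.6 untreated and 50.7, 53.6 and 53.4 treated. The treated libraries thus lay well under the untreated ones in both lines, with no overlap, and the fall was 33.6% in WT and 28.4% in OVA. On the log2 scale Cdc6 changed by -0.59 (SE 0.045, adjusted p = 1.01e-08) in WT and by -0.48 (SE 0.045, adjusted p = 1.22e-07) in OVA. Cdt1, the partner of Cdc6 in loading, changed less. It was at 116 and 112 CPM in untreated and 93.2, 89.5 and 98.0 in treated WT libraries, and at 116 and 107 CPM untreated and 97.5, 91.5 and 91.2 treated in OVA. Again no treated library reached an untreated one, and the difference was -0.29 (SE 0.046, adjusted p = 7.77e-05) in WT and -0.25 (SE 0.046, adjusted p = 2.31e-04) in OVA.

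The 6 subunits of the Mcm ring fell together in both lines. Mcm2, the most abundant of them, was at 571 and 569.9 CPM in untreated WT libraries and at 436, 412 and 435 after IFN-γ. In OVA the values were 566 and 562 CPM untreated and 429, 416 and 421 treated. These levels separated the groups by over 100 CPM in each line, and the difference was close to the same in both: -0.41 (SE 0.030, adjusted p = 4.91e-09) in WT and -0.42 (SE 0.030, adjusted p = 4.05e-09) in OVA. Mcm3 was at 327 and 310.1 CPM untreated and 227, 232 and 217 treated in WT, and at 318 and 302 CPM untreated and 230.1, 223 and 222 treated in OVA. Its differences, -0.50 (SE 0.036, adjusted p = 5.52e-09) and -0.46 (SE 0.037, adjusted p = 1.55e-08), were the largest of the ring in both lines. Mcm4 stood at 221 and 226 CPM untreated and 173, 156 and 157 treated in WT, and at 213 and 225 CPM untreated and 161, 171 and 165 treated in OVA. It changed by -0.47 (SE 0.043, adjusted p = 1.32e-07) and -0.40 (SE 0.043, adjusted p = 6.99e-07). Mcm5, Mcm6 and Mcm7 changed by -0.34, -0.27 and -0.38 in WT and by -0.28, -0.22 and -0.29 in OVA, all called, so that Mcm6, the gene with 3 E2F matches printed above, had the smallest change of the ring.

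Although the proteins of the ring are used in equal numbers, their transcripts differed in level. Per kilobase of merged exon (GENCODE M21, basic annotation), untreated WT cells had 169 CPM of Mcm2, 105 of Mcm3, 87.9 of Mcm6, 76.0 of Mcm5, 69.4 of Mcm7 and 62.3 of Mcm4. In treated WT cells the same levels were 127, 74.4, 73.1, 60.01, 53.3 and 45.1 CPM per kilobase, so the order was kept, and Mcm3 and Mcm6 came to lie within 2 CPM per kilobase of each other. The same scale put the licensing factors Cdt1 at 52.1, Cdc6 at 15.4 and Orc1 at 8.32 CPM per kilobase in untreated WT cells.

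Orc1 and Orc6, the members of the origin recognition complex among the 46, gave weaker calls. Orc1, whose protein is made anew in each cycle, was at 24.7 and 25.4 CPM in untreated and 21.1, 18.4 and 23.4 in treated WT libraries, a difference of -0.26 (SE 0.083, adjusted p = 0.0169). In OVA it was at 28.5 and 27.4 CPM untreated and 20.5, 22.9 and 21.7 treated, a difference of -0.36 (SE 0.081, adjusted p = 0.00127). The treated WT libraries spread over a wide range for their level, and the WT call was lost without untreated replicate 1, without untreated replicate 2 or without treated replicate 2 (adjusted p = 0.0609, 0.106 and 0.0761). Orc6 was at 41.2 and 40.7 CPM untreated and 35.2, 37.2 and 37.8 treated in WT, a difference of -0.16 (SE 0.049, adjusted p = 0.0162) that was lost without either untreated library (adjusted p = 0.101 and 0.0642), with DESeq2 (0.0768) and with no count filter (0.0804). In OVA, at 42.0 and 40.9 CPM untreated and 40.6, 40.0 and 41.5 treated, its groups overlapped and it was not called (-0.025, 95% interval -0.13 to 0.078).

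Helicase activation was mixed, with 3 of 6 genes called lower in each line: Mcm10, Cdc45 and Gins2. Gins2 encodes a subunit of GINS, the complex that joins Cdc45 on the Mcm ring. It was at 34.1 and 36.9 CPM in untreated WT libraries and at 25.01, 25.2 and 26.8 in treated ones, and at 36.6 and 33.5 CPM untreated and 26.6, 29.8 and 27.4 treated in OVA. No treated library reached an untreated one, and the difference was -0.47 (SE 0.065, adjusted p = 1.47e-05) in WT and -0.33 (SE 0.064, adjusted p = 4.27e-04) in OVA. The other 3 subunits of GINS were not called in either line. Gins1 had differences of -0.18 and -0.16, Gins3 of -0.071 and -0.10, and Gins4 of -0.028 and -0.035. Gins1 and Gins3 were among the lowest of the 46 genes, at 14.9 to 19.7 CPM in every library, and the 95% intervals of Gins1, which are not adjusted, were -0.34 to -0.015 in WT and -0.32 to 0.0019 in OVA. Gins1 passed in WT without untreated replicate 2 (adjusted p = 0.0347) and under 2 of the other settings. Mcm10, which binds the activated helicase, changed by -0.22 and -0.19. Cdc45, the helicase cofactor, changed by -0.20 in WT and -0.15 in OVA. The Cdc45 call was lost without untreated replicate 1 in WT (adjusted p = 0.105), and in OVA without untreated replicate 2 (0.337), without treated replicate 1 (0.134) and with DESeq2 (0.0765).

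Among the polymerases and primase, 6 of 7 genes fell in each line, with medians of -0.35 in WT and -0.26 in OVA. Pold1, the catalytic subunit of polymerase delta, which copies the lagging strand, was at 125 and 124 CPM in untreated and 93.0, 88.2 and 90.9 in treated WT libraries. In OVA it was at 115 and 113 CPM untreated and 94.7, 88.7 and 88.7 treated. Treated libraries of both lines lay in the same range while the untreated WT libraries were above the untreated OVA ones, and the change was -0.46 (SE 0.039, adjusted p = 4.04e-08) in WT and -0.33 (SE 0.039, adjusted p = 2.19e-06) in OVA. Pole and Pole2, of the leading strand polymerase epsilon, changed by -0.38 and -0.36 in WT and by -0.39 and -0.27 in OVA. The primase that lays the RNA primers has 2 subunits, and both fell: Prim1, the catalytic one, changed by -0.35 in WT and -0.26 in OVA, and Prim2 by -0.22 and -0.15. The Prim2 call in OVA was lost without untreated replicate 2 (adjusted p = 0.0557). Polymerase alpha split by subunit. Pola1, its catalytic subunit, changed by -0.19 in WT and -0.25 in OVA, both called. Pola2, its regulatory subunit, was at 40.5 and 40.6 CPM untreated and 41.1, 41.1 and 43.0 treated in WT, and at 42.7 and 44.4 CPM untreated and 47.5, 43.2 and 44.7 treated in OVA. The treated libraries of Pola2 were thus above the untreated ones in WT and overlapped them in OVA, and neither difference was called (0.043, 95% interval -0.067 to 0.15 in WT, and 0.053, -0.055 to 0.16 in OVA). Both intervals lie above the whole interval of Pola1 in the same line (-0.27 to -0.11 and -0.33 to -0.17).

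The clamp, its loader and the lagging strand factors held the only genes that rose. Of 10 genes, 6 fell and 2 rose in WT, and 6 fell and 1 rose in OVA. Pcna, the sliding clamp that holds polymerases on DNA, was at 319 and 312 CPM in untreated and 256, 274 and 277 in treated WT libraries, and at 339.8 and 341 CPM untreated and 293, 304 and 295 treated in OVA. The treated libraries were lower without overlap in each line, and the differences were -0.23 (SE 0.034, adjusted p = 3.09e-05) and -0.20 (SE 0.034, adjusted p = 1.26e-04). Per kilobase of exon, Pcna and Rrm2 had the highest levels of the 46 genes in untreated WT cells, at 208 and 205 CPM per kilobase. These 2 levels are too close to rank, because they depend on the exon lengths used.

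The loader that opens the Pcna ring, replication factor C, has 5 subunits, and they did not move together. Rfc3 rose. It was at 42.6 and 42.3 CPM in untreated WT libraries and 54.1, 49.4 and 56.2 in treated ones, and at 46.3 and 43.8 CPM untreated and 55.2, 59.3 and 58.7 treated in OVA. Every treated library was above every untreated library of both lines, and the difference was 0.33 (SE 0.058, adjusted p = 1.90e-04) in WT and 0.36 (SE 0.057, adjusted p = 5.72e-05) in OVA. Its promoter, printed above, holds 2 E2F matches and none of the ISRE letters searched. Rfc1, the largest subunit, was at 142 and 146 CPM untreated and 143, 147 and 145 treated in WT and was not called in either line (0.0099 in WT and -0.051 in OVA). Rfc2 fell in both lines, with differences of -0.17 and -0.10, although the OVA call was lost without either untreated OVA library (adjusted p = 0.0833 and 0.0703), with DESeq2 (0.0708) and with no count filter (0.154). Rfc4 was at 39.9 and 38.1 CPM untreated and 33.5, 32.9 and 36.5 treated in WT, a difference of -0.19 (adjusted p = 0.0249), and -0.090 in OVA, not called. The WT call of Rfc4 was lost without untreated replicate 1 (0.191), without untreated replicate 2 (0.0526), without treated replicate 2 (0.0837) and with DESeq2 (0.0582). Rfc5 was called higher in WT, by 0.12 (adjusted p = 0.0355), but this was lost without either untreated library (0.208 and 0.0652), without treated replicate 1 or 3 (0.147 and 0.0694) and under 4 of the other settings. In OVA its difference was 0.066 and was not called. A rise of Rfc3 beside a fall of Rfc2 was thus measured in both lines, and the intervals of these genes were on opposite sides of 0 (0.20 to 0.45 against -0.24 to -0.094 in WT).

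Single-stranded DNA at the fork is covered by RPA, and both RPA genes among the 46 fell. Rpa1, the largest subunit, changed by -0.25 in WT and -0.29 in OVA. Rpa2, the subunit that is phosphorylated under replication stress, was at 45.3 and 47.1 CPM untreated and 34.8, 35.4 and 38.9 treated in WT, and at 46.7 and 47.3 CPM untreated and 43.0, 39.6 and 44.5 treated in OVA. The treated OVA libraries of Rpa2 were closer to the untreated ones than in WT (a difference of responses that was not called), and the difference was -0.35 (SE 0.059, adjusted p = 1.32e-04) in WT and -0.15 (SE 0.058, adjusted p = 0.0419) in OVA. The OVA call of Rpa2 was lost without untreated replicate 1, without untreated replicate 2 or without treated replicate 2 (adjusted p = 0.0967, 0.173 and 0.135), with DESeq2 (0.102) and with no count filter (0.0770). Lig1, the ligase that seals Okazaki fragments, was at 214 and 206 CPM untreated and 159, 159 and 157 treated in WT and changed by -0.41 and -0.38, both called. Fen1, the flap nuclease that acts before it, had smaller differences of -0.10 in WT, not called, and -0.14 in OVA, called (adjusted p = 0.0272). The WT difference of Fen1 passed without treated replicate 3 (adjusted p = 0.00959) and under 3 of the other settings, and the OVA call was lost without untreated replicate 1 or 2 or treated replicate 1 (0.135, 0.0707 and 0.0664).

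All 4 genes of nucleotide synthesis fell in each line, with a median of -0.44 in both. Tk1, thymidine kinase of the salvage route, was at 127 and 121 CPM in untreated WT libraries and at 79.6, 85.2 and 88.5 in treated ones, and at 126 and 126 CPM untreated and 88.1, 90.2 and 89.0 treated in OVA. Its change was the largest of the 46 genes in OVA, -0.50 (SE 0.042, adjusted p = 3.28e-08), and the second largest in WT, -0.55 (SE 0.042, adjusted p = 9.19e-09). Ribonucleotide reductase makes deoxynucleotides from ribonucleotides, with Rrm1 as its large and Rrm2 as its small, S phase subunit. Rrm1 was at 420.1 and 411 CPM untreated and 309.5, 303 and 307 treated in WT, and at 419 and 418 CPM untreated and 302, 307 and 315 treated in OVA. Rrm2 was at 452 and 446 CPM untreated and 348, 324 and 327 treated in WT and at 476 and 466 CPM untreated and 345, 341 and 356 treated in OVA. In WT Rrm1 fell by 26.2% and Rrm2 fell by 25.8%, with no overlap of the groups in either line. On the log2 scale the differences were -0.44 (SE 0.028, adjusted p = 1.09e-09) and -0.44 (SE 0.028, adjusted p = 9.42e-10) for Rrm1. For Rrm2 they were -0.43 (SE 0.033, adjusted p = 1.07e-08) and -0.44 (SE 0.033, adjusted p = 7.54e-09). Tyms, thymidylate synthase, changed less: it was at 68.0 and 67.2 CPM untreated and 59.0, 57.7 and 60.4 treated in WT, and at 72.0 and 71.2 CPM untreated and 59.0, 60.5 and 60.1 treated in OVA. Its treated libraries were lower without overlap, with differences of -0.20 (SE 0.040, adjusted p = 7.74e-04) in WT and -0.26 (SE 0.040, adjusted p = 4.41e-05) in OVA.

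**Figure D3:**
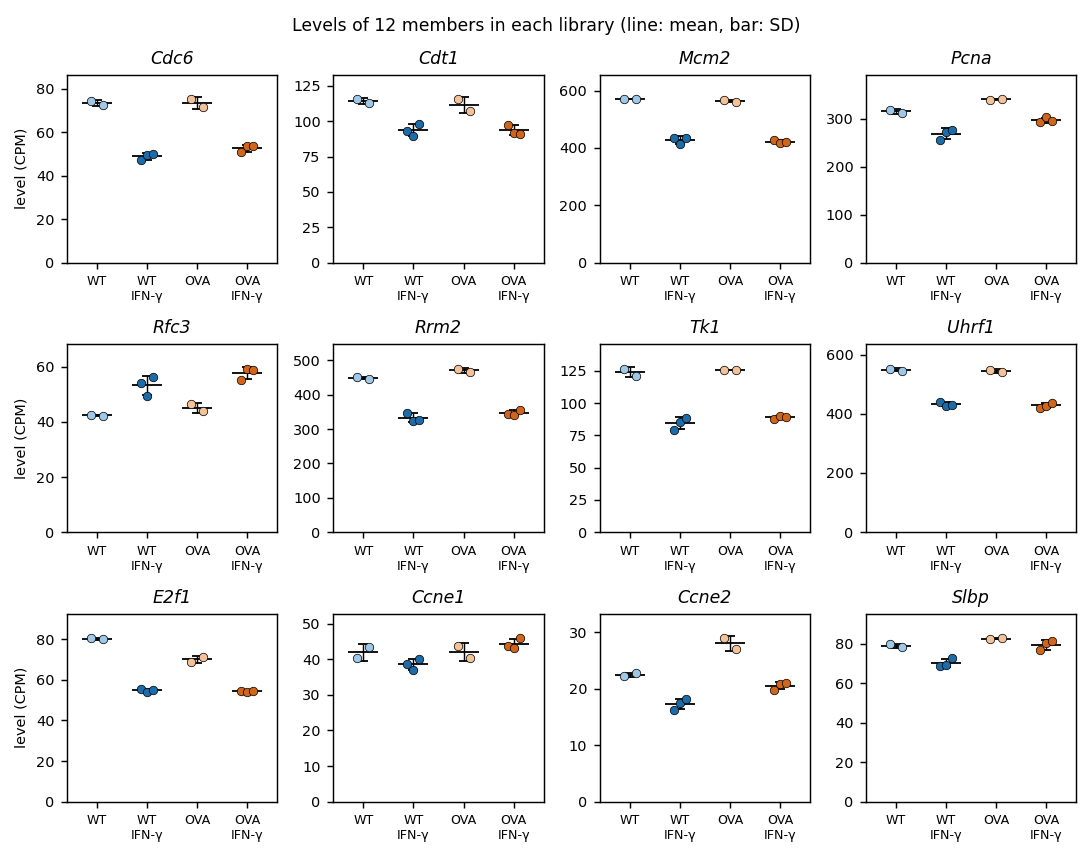
Level in CPM (vertical axis, from 0) of 12 of the 46 genes in each library (points), with the mean and SD of each of the 4 groups (horizontal axis). Cdc6, Mcm2, Rrm2, Tk1, Uhrf1 and E2f1 are lower in every treated library, Rfc3 is higher in every treated library, and the groups of Ccne1 differ little.

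The genes that copy chromatin behind the fork fell, 5 of 5 in WT and 4 of 5 in OVA. Uhrf1, which brings the maintenance methyltransferase to newly copied DNA, was at 553 and 545 CPM in untreated and 440.3, 428 and 428 in treated WT libraries, and at 549 and 539.8 CPM untreated and 421, 428 and 438 treated in OVA. The groups were over 100 CPM apart in each line, and the differences were -0.35 (SE 0.028, adjusted p = 2.44e-08) and -0.34 (SE 0.028, adjusted p = 2.39e-08). Dnmt1, the methyltransferase itself, was at 471 and 468 CPM untreated and 363, 352 and 346 treated in WT and at 463 and 465 CPM untreated and 339, 346 and 337 treated in OVA, and changed by -0.41 (SE 0.029, adjusted p = 3.43e-09) and -0.44 (SE 0.029, adjusted p = 1.06e-09). Chaf1a and Chaf1b, subunits of the chromatin assembly factor that places new histones, changed by -0.39 and -0.30 in WT and by -0.39 and -0.21 in OVA. Slbp, which binds the stem-loop of histone messages and is needed to make histones in S phase, was the one of the 5 not called in OVA. It was at 79.8 and 78.3 CPM untreated and 68.9, 69.3 and 72.8 treated in WT, and at 82.5 and 82.9 CPM untreated and 76.7, 80.2 and 81.4 treated in OVA. It fell in WT, with a difference of -0.17 (SE 0.042, adjusted p = 0.00324), and had a difference of -0.058 in OVA (95% interval -0.14 to 0.029), where its libraries did not overlap either.

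Of the 4 control genes, E2f1, Ccne2 and Clspn fell in both lines and Ccne1 in neither. E2f1, a transcription factor that drives the G1/S wave, was at 80.5 and 79.8 CPM in untreated WT libraries and 55.3, 53.9 and 55.1 in treated ones. In OVA it was at 68.7 and 71.2 CPM untreated and 54.7, 54.2 and 54.5 treated. All treated libraries of both lines lay between 53.9 and 55.3 CPM, while the untreated WT libraries were about 10 CPM above the untreated OVA ones. The change was -0.55 (SE 0.039, adjusted p = 4.28e-09) in WT and -0.36 (SE 0.040, adjusted p = 1.04e-06) in OVA. The cyclins E bind Cdk2 at the start of S phase, and of the pair only Ccne2 was called. Ccne2 was at 22.1 and 22.7 CPM untreated and 16.3, 17.4 and 18.1 treated in WT, and at 28.9 and 27.0 CPM untreated and 19.8, 20.8 and 20.9 treated in OVA, and changed by -0.37 (SE 0.068, adjusted p = 2.35e-04) and -0.45 (SE 0.064, adjusted p = 1.75e-05). Ccne1 was at 40.3 and 43.5 CPM untreated and 38.8, 37.0 and 40.0 treated in WT, and at 43.8 and 40.3 CPM untreated and 43.8, 43.1 and 46.0 treated in OVA. The treated libraries of Ccne1 were a little lower in WT and overlapped the untreated ones in OVA, and neither difference was called (-0.12, 95% interval -0.24 to 0, and 0.075, -0.044 to 0.19). The WT difference of Ccne1 passed without treated replicate 3 (adjusted p = 0.0473) and under 3 of the other settings. Clspn, the adaptor that links stalled forks to Chek1, changed by -0.17 and -0.22. Its WT call was lost without untreated replicate 2 (adjusted p = 0.106).

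Genes with and without a match to the searched E2F forms were compared as a description. Of the 16 with a match, 14 fell and 1 rose in each line, with a median of -0.34 in WT and -0.28 in OVA. Of the 22 whose promoter held no match, 17 fell and 1 rose in WT, with a median of -0.22. In OVA 15 of them fell and 0 rose, with a median of -0.20. Of all genes tested, 19.7% were called lower and 24.5% higher in WT, and 22.9% lower and 25.9% higher in OVA. No match means only that the searched forms were absent, so these 22 are not shown to lack E2F sites. Prim1, Rrm1 and Chaf1a among them hold GTTCCCGC, which differs from the searched TTTCCCGC only in its opening letter. The 8 genes with no promoter in the table had medians of -0.29 and -0.24. The sets overlapped widely, from -0.59 to 0.33 with a match and from -0.55 to 0.12 without one in WT.

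The difference of the 2 responses, which is the question of the series, was called for none of the 46 genes, where 0.0773% of all genes were called with a higher value in OVA, 0.264% with a lower one and 0.341% in either direction. DESeq2 and limma-voom also called 0. At an unadjusted p under 0.05 there were 4, all with a larger value in OVA than in WT. E2f1 differed by 0.19 (SE 0.056, adjusted p = 0.214), Ccne1 by 0.20 (SE 0.080, adjusted p = 0.401), Rpa2 by 0.20 (SE 0.083, adjusted p = 0.415) and Pold1 by 0.12 (SE 0.055, adjusted p = 0.444). Over the 46 genes the difference ran from -0.10 to 0.20 with a median of 0.031, where the median of all genes was -0.015. Each gene's 95% interval of the difference, taken alone, lay within 0.5 of 0 on the log2 scale for all 46, and these intervals were 0.170 to 0.489 wide. For the licensing factor Cdc6 the interval was -0.025 to 0.24, for Mcm2 -0.094 to 0.086, for Rrm2 -0.11 to 0.092, for Uhrf1 -0.084 to 0.087 and for Pcna -0.069 to 0.14.

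Between the untreated lines 2 of the 46 genes were called, where 2.98% of all genes were called higher in OVA, 2.55% lower and 5.53% in either direction. Ccne2 was higher in OVA, at 27.98 ± 1.33 CPM (SD, n = 2) against 22.4 ± 0.387 (SD, n = 2) in WT, a difference of 0.32 (SE 0.069, adjusted p = 0.0108). E2f1 was lower in OVA, at 70.0 ± 1.76 CPM (SD, n = 2) against 80.1 ± 0.439 (SD, n = 2), a difference of -0.20 (SE 0.042, adjusted p = 0.0108). The libraries of the lines did not overlap for either gene, as for 17 of the 46 with OVA higher (26.4% of all genes) and 7 with OVA lower (23.3%). Both calls were lost with DESeq2 (adjusted p = 0.0814 for Ccne2 and 0.0530 for E2f1) and without untreated WT replicate 1, untreated WT replicate 2 or untreated OVA replicate 1. The values without these libraries were 0.0942, 0.0630 and 0.1249 for Ccne2 and 0.0939, 0.0716 and 0.142 for E2f1. The median of the 46 genes was 0.0065, with 25 above 0 and 21 below.

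Once treated, OVA cells had a higher level than WT cells for 10 of the 46 genes and a lower one for 1, where 6.36% of all genes were called higher, 7.99% lower and 14.4% in either direction. Ccne2 was again higher, by 0.25 (SE 0.062, adjusted p = 0.0128), at 20.5 ± 0.604 CPM (SD, n = 3) against 17.3 ± 0.921 (SD, n = 3). Rpa2 was at 42.4 ± 2.48 CPM in OVA and 36.3 ± 2.21 in WT (SD, n = 3 each), a difference of 0.22 (SE 0.054, adjusted p = 0.0105). Ccne1 was at 44.3 ± 1.5 and 38.6 ± 1.5 CPM, a difference of 0.20 (SE 0.051, adjusted p = 0.0137). Both cyclins E thus stood higher in treated OVA cells, with no overlap of the libraries. Slbp was at 79.4 ± 2.43 CPM in OVA and 70.3 ± 2.13 in WT, a difference of 0.18 (SE 0.037, adjusted p = 0.00441). Prim1 was at 51.8, 49.1 and 53.6 CPM in the treated WT libraries and 56.4, 55.8 and 60.7 in the treated OVA ones, which gives 0.16 (SE 0.045, adjusted p = 0.0232). Its untreated libraries, at 66.2 and 64.8 CPM in WT and 68.1 and 70.2 in OVA, gave 0.077, not called. Gins4, which was not called in either response, was at 31.8, 30.4 and 33.9 CPM in treated WT and 36.8, 34.4 and 36.0 in treated OVA libraries, a difference of 0.16 (SE 0.050, adjusted p = 0.0461). Its untreated libraries, at 33.0 and 32.3 CPM in WT and 36.4 and 36.8 in OVA, differed by a like amount that was not called (0.17, adjusted p = 0.143).

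The remaining genes called between the treated lines were Mcm7 (0.15), Orc6 (0.15), Pcna (0.14) and Mcm5 (0.11), all higher in OVA, and Rfc1 (-0.10), lower. The count of 10 fell to 5 without treated WT replicate 2 and to 5 without treated OVA replicate 3, and it was 6 with DESeq2. The calls of Slbp, Mcm7, Pcna and Mcm5 were kept under every alternative run. Ccne2 was lost without treated WT replicate 1 (adjusted p = 0.0588) and with DESeq2 (0.0734). Rpa2 and Ccne1 were lost without treated WT replicate 2 (0.0518 and 0.0736) and without treated OVA replicate 3 (0.0536 and 0.0606). Prim1 was lost without treated WT replicate 1 or 2 or treated OVA replicate 3 (0.0505, 0.117 and 0.110) and with DESeq2 (0.0618). Gins4 was lost without treated WT replicate 1 or 2 or treated OVA replicate 1 or 3 (0.104, 0.191, 0.133 and 0.111), with DESeq2 (0.179), with no count filter (0.0641) and with only the groups compared (0.0615). Of the fits without 1 treated library, Orc6 was lost in each except the one without treated WT replicate 3, and Rfc1 in each except the one without treated OVA replicate 3, with the highest adjusted p at 0.128 and 0.136. Orc6 was also lost with DESeq2 (0.165) and with no count filter (0.0673). Rfc1 was also lost with DESeq2 (0.0940), no count filter (0.115), library size only (0.102) and only the groups compared (0.0674). The treated groups did not overlap, with OVA higher, for 12 of the 46 genes, against 15.1% of all genes. With library size as the only scaling, 11 of the 46 were higher and 0 lower. The same change of scaling moved the calls over all genes from 988 higher and 1241 lower to 1450 higher and 967 lower. The median of the 46 genes between the treated lines was 0.031, with 32 above 0. These line comparisons use the same libraries as the responses, so E2f1, which was lower in untreated OVA cells and at a close level in treated cells of both lines (-0.0079, 95% interval -0.087 to 0.071), gives the same measurement in another form.

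**Figure D4:**
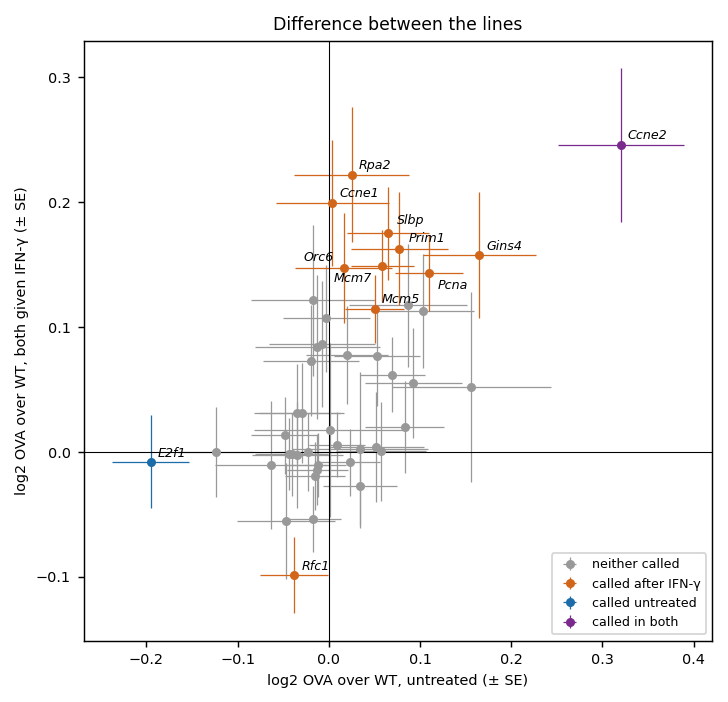
Difference between OVA and WT on the log2 scale for each of the 46 genes, untreated on the horizontal axis and after IFN-γ on the vertical axis, with bars of 1 SE and colours for the comparison in which the gene was called. Ccne2 lies apart at the upper right, E2f1 lies apart at the left, and 9 other genes were called higher in treated OVA cells.

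Other genes of the same processes, from lists that hold none of the 46, moved in both directions. Of 33 other replication genes, all tested, 17 fell and 5 rose in WT and 15 fell and 4 rose in OVA, with medians of -0.14 and -0.12. The share that fell was 51.5% in WT and 45.5% in OVA, against 19.7% and 22.9% of all genes. The share that rose was 15.2% and 12.1%, against 24.5% and 25.9%. Chtf18, of the alternative clamp loader used in cohesion, was at 35.6 and 31.9 CPM untreated and 20.8, 25.8 and 23.9 treated in WT, and changed by -0.52 (adjusted p = 2.71e-05) there and by -0.44 in OVA. Dna2, a nuclease that trims long flaps, changed by -0.44 and -0.45. Recql4, a helicase with a role in initiation, changed by -0.38 and -0.48, and Tipin, of the fork protection complex, by -0.38 and -0.32. Orc4 rose, in contrast to Orc1: it was at 53.8 and 58.8 CPM untreated and 65.7, 71.7 and 74.2 treated in WT, and at 53.5 and 53.3 CPM untreated and 73.0, 76.4 and 71.9 treated in OVA. Its treated libraries were above all untreated ones, with differences of 0.33 (adjusted p = 1.17e-04) and 0.47 (adjusted p = 2.25e-06).

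Of 31 other G1/S control genes 27 were tested, since Cdkn1c, Cdkn2a, Cdkn2b and Mycn had too few counts. In WT 12 fell and 6 rose, and in OVA 12 fell and 5 rose, with medians of -0.019 and -0.086. The share that fell was 44.4% in each line, against 19.7% of all genes in WT and 22.9% in OVA. The share that rose, 22.2% in WT and 18.5% in OVA, was not above that of all genes (24.5% and 25.9%). Skp2, the subunit of the ubiquitin ligase that marks the Cdk inhibitor p27 for destruction, had a larger fall than any of the 46 genes. It was at 66.6 and 65.2 CPM untreated and 37.0, 39.9 and 40.4 treated in WT, and at 65.2 and 68.4 CPM untreated and 38.7, 40.1 and 36.2 treated in OVA. That is a change of -0.75 (SE 0.052, adjusted p = 2.89e-09) in WT and -0.80 (SE 0.052, adjusted p = 1.21e-09) in OVA. Cdkn1b, which encodes p27, rose: it was at 112 and 109 CPM untreated and 139.5, 141 and 146 treated in WT, and at 95.8 and 101 CPM untreated and 124, 126 and 129.6 treated in OVA, with differences of 0.37 (adjusted p = 4.29e-07) and 0.36 (adjusted p = 5.60e-07). Fbxw7, of the ligase that marks cyclin E and Myc, rose by 0.47 in WT and 0.36 in OVA. The list also holds E2f2 to E2f8, and beside E2f1 4 of these 7 genes fell in both lines. The activators E2f2 and E2f3 changed by -0.72 and -0.45 in WT and by -0.57 and -0.50 in OVA. The atypical repressors E2f7 and E2f8 changed by -0.44 and -0.28 in WT and by -0.61 and -0.25 in OVA. The repressors E2f4, E2f5 and E2f6 were not called in WT (0.078, 0.055 and 0.014). In OVA E2f4 and E2f6 were not called (-0.019 and -0.093), and E2f5 was called higher (0.21, adjusted p = 0.0320), a call lost without untreated replicate 1 (0.381), without any 1 of the treated libraries (0.0728, 0.0753 and 0.0743), with DESeq2 (0.142) and with the replicate block (0.0738).

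Of the 3 D cyclins, which start Rb phosphorylation with Cdk4 and Cdk6, Ccnd1 rose while Ccnd2 and Ccnd3 fell in both lines. Ccnd2 was at 779 and 788 CPM untreated and 656, 665 and 623 treated in WT, and at 826 and 835 CPM untreated and 661, 674 and 663 treated in OVA. Its treated libraries were lower without overlap, with differences of -0.28 (adjusted p = 8.27e-07) and -0.32 (adjusted p = 1.12e-07). Ccnd3 changed by -0.14 (adjusted p = 0.00853) in WT, which was lost without untreated replicate 1 (0.303), and by -0.16 (adjusted p = 0.00208) in OVA. Ccnd1 was at 199 and 188 CPM untreated and 226, 229 and 232 treated in WT, and rose by 0.24 (adjusted p = 1.00e-05). In OVA it was at 219 and 216 CPM untreated and 239.5, 232 and 233 treated, a difference of 0.11 (adjusted p = 0.00868) that was lost without untreated replicate 1 or 2 or treated replicate 1 (0.0607, 0.0724 and 0.0533). Cdk4 and Rb1 were not called in either line (-0.088 and 0.0034 in WT, -0.060 and -0.026 in OVA). Cdk6 had a difference of 0.24 in WT, called at an adjusted p of 0.0237 and lost without untreated replicate 1 or treated replicate 1 or 2 (0.174, 0.0611 and 0.0956), with DESeq2 (0.0516) and with library size only (0.0507), and 0.0099 in OVA, not called. Cdk2, the partner of cyclin E, was at 791 and 777 CPM untreated and 663, 689 and 688 treated in WT and changed there by -0.21 (adjusted p = 1.26e-05). In OVA it was lower before treatment, at 672 and 686 CPM (-0.21 against untreated WT, called), and had a difference of -0.061 that was not called. Myc, a growth regulator that promotes S phase entry, changed by -0.33 in WT and -0.24 in OVA, both called.

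Cdkn1a, which encodes the Cdk inhibitor p21 and is a target of p53, was higher in OVA than in WT both before and after treatment. Untreated libraries were at 74.7 and 73.8 CPM in WT and 152 and 148 in OVA, and treated ones at 71.7, 77.3 and 70.7 and 136, 135 and 137. OVA was thus higher by 1.02 (SE 0.044, adjusted p = 2.95e-10) untreated and by 0.89 (SE 0.036, adjusted p = 5.62e-11) treated, and the groups were far apart. The response was -0.019 in WT, not called, and -0.14 in OVA, called lower. Between the untreated lines the 46 replication genes had a median of 0.0065, with 1 called higher in OVA and 1 called lower. Whether the level of Cdkn1a bears on these genes was not tested.

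**Figure D5:**
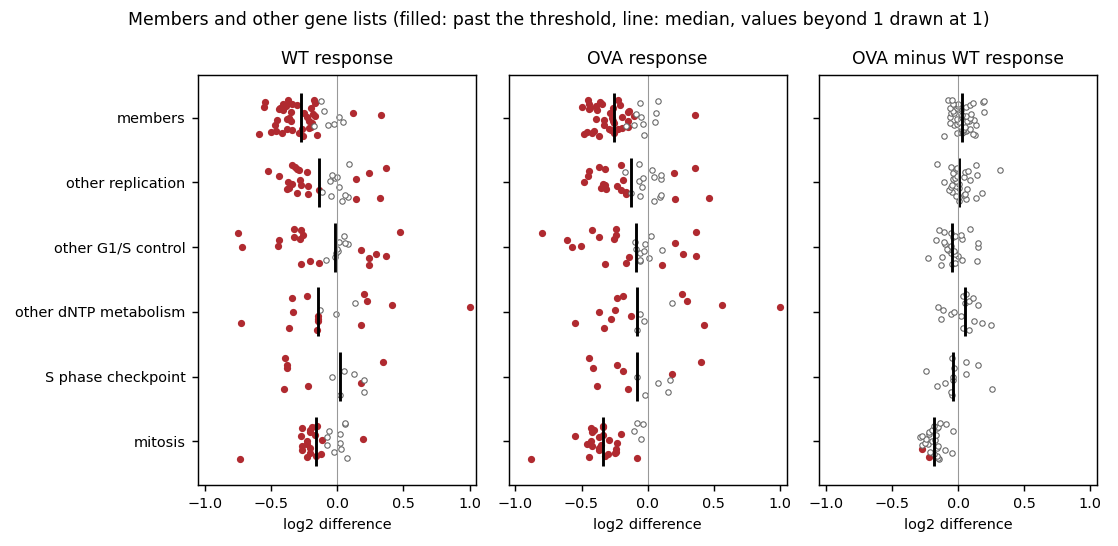
Differences on the log2 scale (horizontal axis) for the 46 genes and for 5 other lists (vertical axis), in WT, in OVA and as OVA minus WT, with each gene as a point, filled where it was called, and the median as a bar. The 46 genes lie mostly below 0 in both lines and around 0 in the difference, while all 29 mitosis genes lie below 0 in the difference. Values beyond 1 (Samhd1) are drawn at 1.

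Other genes of deoxynucleotide metabolism moved in both directions: of 17 tested, 9 fell and 5 rose in WT and 8 fell and 5 rose in OVA, with medians of -0.15 and -0.077. The share that rose, 29.4% in each line, was near that of all genes (24.5% in WT and 25.9% in OVA). The share that fell was 52.9% and 47.1%, against 19.7% and 22.9% of all genes. Samhd1, the enzyme that breaks down deoxynucleotide triphosphates and an interferon-induced restriction factor, had by far the largest change of these lists. It was at 43.1 and 43.0 CPM in untreated WT libraries and 269, 269 and 264 in treated ones, and at 47.8 and 44.95 CPM untreated and 262, 258 and 258 treated in OVA. It rose by 2.63 (SE 0.037, adjusted p = 3.41e-19) and 2.49 (SE 0.037, adjusted p = 6.14e-19). In every treated library Samhd1 was higher, and Rrm1, Rrm2, Tyms and Tk1 of the synthesis route were lower, than in any untreated library of the same line. Shmt1, of the folate cycle that feeds Tyms, changed by -0.73 in WT and -0.55 in OVA, and Dut, which clears dUTP, by -0.37 and -0.33. Tk2, the mitochondrial thymidine kinase, rose by 0.42 and 0.56. Rrm2b, the p53-induced small subunit of the reductase, had differences of 0.18 (adjusted p = 0.0212) and 0.43 (adjusted p = 9.38e-06). Its WT call was lost without either untreated library (0.0923 and 0.0850), without treated replicate 1 or 3 (0.0654 and 0.111), with DESeq2 (0.144) and with library size only (0.0527). Rrm2b was at 26.3 and 26.4 CPM untreated and 30.1, 28 and 31.3 treated in WT and at 27.6 and 26.3 CPM untreated and 35.7, 36.8 and 36.2 treated in OVA, and its difference of responses was not called (0.25, adjusted p = 0.267).

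Of 13 S phase checkpoint genes, 5 fell and 2 rose in WT and 6 fell and 2 rose in OVA, with medians of 0.021 and -0.078. The share that fell was 38.5% in WT and 46.2% in OVA, against 19.7% and 22.9% of all genes. The share that rose was 15.4% in each line, against 24.5% and 25.9%. Chek1, the kinase that Clspn activates, changed by -0.40 in WT and -0.15 in OVA, and its difference of responses was not called (0.25, adjusted p = 0.239). Its OVA call (adjusted p = 0.0409) was lost without either untreated library (0.0668 and 0.222), without treated replicate 1 or 2 (0.0843 and 0.0764), with DESeq2 (0.0959) and with no count filter (0.0703). Wee1, which restrains Cdk1 and Cdk2, changed by -0.38 and -0.41, and Brca2 by -0.40 and -0.44. Brca1 went the other way: it was at 236 and 232 CPM untreated and 292, 296 and 304 treated in WT and rose by 0.34, and by 0.40 in OVA.

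The mitosis genes, expressed later in the cycle, were set beside the replication genes because both mark dividing cells. Of 29, 18 fell and 1 rose in WT and 25 fell and 0 rose in OVA, with medians of -0.16 and -0.34. The share that fell was 62.1% in WT and 86.2% in OVA, against 19.7% and 22.9% of all genes. Mki67, a marker of cycling cells, changed more than any of the 46 genes: it was at 679 and 719 CPM untreated and 440.1, 426 and 392 treated in WT, and at 660.5 and 654 CPM untreated and 367, 359 and 342 treated in OVA, with changes of -0.74 (adjusted p = 2.03e-10) and -0.88 (adjusted p = 1.65e-11). In the difference of responses, all 29 mitosis genes were below 0, with a median of -0.18, where the median of all genes was -0.015. Of these 29, 2 were called lower (6.9%, against 0.264% of all genes). Both calls, Ccna2 and Plk1, were lost in most fits without 1 library, as given further on. The 46 replication genes had a median of 0.031, with 29 above 0 and 17 below, and 0 called. Between the treated lines 14 mitosis genes (48.3%, against 7.99% of all genes) were lower in OVA and 0 higher, where the replication genes had 10 higher and 1 lower. These comparisons share libraries and are the same values seen from different sides.

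Counting may touch some of these values. By GENCODE M21, 15 of the 46 genes have an exon that overlaps an exon of another gene on the opposite strand: Orc1, Orc6, Mcm7, Cdc45, Gins2, Pole, Rfc2, Rfc4, Rfc5, Fen1, Lig1, Tk1, Chaf1a, Slbp and Ccne2. Whether reads were counted by strand is not stated, so for these genes reads of the partner cannot be told apart. The other 31 have no such overlap, and they hold Cdc6, Mcm2, Mcm3, Rrm1, Rrm2, Dnmt1, Uhrf1, E2f1 and Rfc3.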

How the data were processed

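Poly-A selected RNA of 10 libraries was sequenced. The authors deposited raw read counts per Ensembl gene with symbols, in 1 table. Reads were aligned with HISAT2 2.0.5 and counted with featureCounts 1.6.0 on GRCm39, per the submitters' processing notes, and their annotation release, strandedness and treatment of reads with several matches were not given in the sources. By the labels the samples are cell lines, although the RNA extraction text mentions tissue.

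The tests used edgeR 4.0.16 under R 4.3.3: TMM factors, filterByExpr on group, and the two-sided quasi-likelihood F test in 1 fit of all 10 libraries (4 groups, Benjamini-Hochberg over 15526 genes, threshold 0.05) in 5 comparisons. The SE is the log2 difference divided by the square root of F, and intervals are 95% and not adjusted. Total counts of 17728722 to 19642533 per library gave each of the 46 genes at least 274 reads, and at the lowest counts counting error is a large part of the spread between libraries. No label calls the replicates separate cultures, so p-values measure the spread between these libraries, which may be technical. Replicates of a group differed beyond counting noise (chi-square per degree of freedom of 2.06 to 3.65 over genes), so none was taken as a copy. Members and lists were chosen with earlier results of these data known. Values per library are given for 11 fixed genes, for the 8 largest calls without overlap in each response and the 6 in each line comparison, and for some other members. Genes of the other lists are the 4 largest calls per comparison, given in part, 9 fixed ones, and the other D cyclin and E2F genes of the list, added after their values were seen. Exon lengths and antisense overlaps came from GENCODE M21, and promoters from RefSeq on GRCm38.p6, matched by symbol. Neither is on the authors' build. The alternatives were DESeq2 1.42.0, limma-voom (limma 3.58.1), no count filter, 1 CPM in 5 samples, a replicate block, library size only, only the groups compared, and each library left out. The steps were tested on simulated data, where requirements were set only for changes larger than any of the 46 genes had. That test therefore set no requirement for changes of the size seen in these genes.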

Additional observations from a re-analysis of the deposited data

Results flagged for a closer look

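Among the 46 genes and the other lists, the test of the difference of the responses singled out 2 genes, both from the mitosis list. Over all 15526 genes tested it called 53, or 0.341%. Ccna2, the cyclin of S phase and G2, responded with -0.23 in WT and -0.45 in OVA, a difference of -0.22 (adjusted p = 0.0394, edgeR). It was at 226 and 226 CPM untreated and 194, 189 and 195 treated in WT, and at 244 and 244 CPM untreated and 179, 184 and 175 treated in OVA. Plk1, a mitotic kinase, responded with 0.032 in WT, not called, and -0.24 in OVA, a difference of -0.27 (adjusted p = 0.0394). With library size as the only scaling the adjusted p was 0.0919 for Ccna2 and 0.0767 for Plk1. Of the 10 fits without 1 library, 9 lost Ccna2 (adjusted p of 0.0571 to 0.218) and 8 lost Plk1 (0.0790 to 0.293). Ccna2 was kept without treated WT replicate 3, and Plk1 without that library or without treated OVA replicate 3. None of the 46 replication genes was singled out in this way, and groups of 2 and 3 libraries are too small for the test of single outlying libraries.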

How the results depend on the processing

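Of 39 genes called in the WT response, 33 kept direction and call under every alternative, and of 36 in OVA, 31 did. WT genes called higher fell from 2 to 1 with DESeq2, with the filter of 1 CPM in 5 samples, with the replicate block and with library size only. WT genes called lower numbered 35 to 40, and OVA genes called lower 32 to 35, over the alternatives that kept all libraries of the comparison. For the difference of responses every alternative called 0. Between the untreated lines, the counts of 1 higher and 1 lower became 0 and 0 with DESeq2 and 2 and 2 with only the groups compared. Between the treated lines, 10 higher became 6 with DESeq2, and 1 lower became 0 with DESeq2, no count filter, library size only and only the groups compared. Leaving out 1 library gave 1 to 2 higher and 33 to 39 lower in WT, 1 higher and 30 to 35 lower in OVA, 0 to 1 higher and 0 to 1 lower between untreated lines, and 5 to 11 higher and 0 to 1 lower between treated lines. Where a fit left 1 library in a group, that library was assumed to vary like the rest. Among uncalled WT values near 0, 2 genes changed sign: Gins4 went to 0.0087 without treated replicate 2 (-0.083 to 0.0087 over the fits without 1 library), and Rfc1 went to -0.0017 with DESeq2, -0.014 with 1 CPM in 5 samples, -0.022 with library size only, -0.0090 without untreated replicate 1 and -0.0037 without treated replicate 3 (-0.0090 to 0.034 over such fits). The cause of these changes was not tested. Deviations of same-numbered libraries had correlations of -0.064 to 0.072 over 13 pairs, none over 0.1. The 24 pairs with other numbers gave -0.08 to 0.086. In groups of 2 libraries the deviations mirror each other, so these values do not decide whether the numbers mark pairs. With the replicate block 39 of the replication genes were lower in WT, 35 in OVA, 10 higher between treated lines and 0 in the difference. Over all genes, the block moved the calls in the difference from 12 higher and 41 lower to 26 and 139. Between the treated lines they rose from 988 higher and 1241 lower to 1139 and 1465. Between the untreated lines they rose from 463 and 396 to 559 and 508. Calls fell in the WT response from 3803 higher and 3055 lower to 3697 and 2978. In the OVA response they fell from 4017 and 3563 to 3853 and 3420. No scaling moved the median of all genes by more than 0.1. With 2 untreated libraries per line, changes under about 0.1 to 0.2 on the log2 scale were at the limit of what was called.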

Other observations

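The letters in the promoters of the other lists gave values that the comparisons above do not use. The E2F forms were found in 7 of 28 other replication genes with a promoter in the table (25%) and in 9 of 24 other G1/S control genes (37.5%). They were found in 2 of 10 S phase checkpoint genes (20%), in 0 of 15 other genes of deoxynucleotide metabolism and in 1 of 24 mitosis genes (4.17%). The share was 42.1% of the replication genes described here and 2.6% of all genes. The CHR letters TTTGAA are bound by the DREAM complex in genes of late cell cycle. They were found in 18 of 24 mitosis genes (75.0%) and 5 of 38 replication genes (13.2%), against 20.2% of all genes. In the other lists the CHR share was 33.3% of other G1/S control genes and 21.4% of other replication genes. It was 13.3% of other genes of deoxynucleotide metabolism and 10% of S phase checkpoint genes. CCAAT was found in 20 of 24 mitosis genes (83.3%) and 24 of 38 replication genes (63.2%). These are counts of letters within 250 bases before and 50 after a start.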
